A study of Mus musculus with 4 samples.

Results

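The genes described here are 29 genes of sterol and fatty acid synthesis, listed by name. Earlier results of these data were known when they were chosen. All 29 were found among the 32287 features of the count matrices. They comprise 7 enzymes of the mevalonate steps (Acat2, Hmgcs1, Mvk, Pmvk, Mvd, Idi1 and Fdps) and 11 enzymes of the squalene and sterol steps (Fdft1, Sqle, Lss, Cyp51, Tm7sf2, Msmo1, Nsdhl, Hsd17b7, Ebp, Sc5d and Dhcr7). A further 4 genes act in regulation and sterol transport (Srebf1, Srebf2, Insig1 and Stard4), and 7 in fatty acid synthesis (Acly, Acaca, Fasn, Elovl5, Elovl6, Scd1 and Scd2). RNA was measured cell by cell in 4 droplet libraries of live, nucleated heart cells of the mouse, obtained by sorting, 1 for each group. The first 2 groups are infarcted hearts taken 3 days after myocardial infarction, one labelled Tcf21-MerCreMer:flox (infarct deletion-labelled) and one labelled Tcf21-MerCreMer alone (infarct control). The other 2 are uninjured hearts of the same genotypes (uninjured deletion-labelled and uninjured control). MerCreMer is a Cre recombinase that works only when tamoxifen is given, here placed at the Tcf21 gene, and mice of every group received tamoxifen, so the controls carry the Cre and the drug as well. The series describes the deletion of TCF21, a transcription factor of cardiac fibroblasts, in those cells. The labels do not give the floxed stretch of Tcf21, the age of the mice, or how many hearts entered a library.

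Cholesterol is built from acetyl-CoA through mevalonate, which is condensed to farnesyl diphosphate, joined to squalene, closed to lanosterol and then trimmed step by step. Fatty acids are made from the same acetyl-CoA through malonyl-CoA and are then elongated and desaturated. Transcription of most of these enzymes is driven by SREBP proteins, the products of Srebf1 and Srebf2, which INSIG proteins hold in the endoplasmic reticulum while sterols are plentiful and which reach the nucleus when sterols run low. Cells that build membrane, such as dividing or secreting cells, draw on both paths, and fibroblasts are the main source of matrix in the infarcted heart.

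SREBP proteins bind sterol elements, commonly with a neighbouring NF-Y box, whose core is CCAAT. Promoters are shown for 4 members that were higher after infarction in control fibroblasts. There 13 of the 18 sterol enzymes were at least 1.5-fold higher, against 25.7% of all 14849 genes counted. The sequences are RefSeq promoters of build GRCm38.p6, from 250 bases before to 50 bases after the start, written 5′ to 3′ along the gene's strand, for Hmgcs1 (chr13:119690101-119690400, plus strand), Cyp51 (chr5:4104648-4104947, minus strand), Msmo1 (chr8:64733529-64733828, minus strand) and Fasn (chr11:120824498-120824797, minus strand). Capitals mark matches of TCACNCCAC, the sterol element, and of CCAAT, each searched on both strands, so that ATTGG is CCAAT on the opposite strand.
Hmgcs1: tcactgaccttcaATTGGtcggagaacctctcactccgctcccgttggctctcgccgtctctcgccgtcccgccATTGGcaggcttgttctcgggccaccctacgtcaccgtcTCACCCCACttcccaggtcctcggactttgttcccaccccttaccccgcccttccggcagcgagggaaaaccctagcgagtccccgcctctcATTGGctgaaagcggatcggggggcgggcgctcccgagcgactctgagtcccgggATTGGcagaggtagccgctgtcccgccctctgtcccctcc
Cyp51: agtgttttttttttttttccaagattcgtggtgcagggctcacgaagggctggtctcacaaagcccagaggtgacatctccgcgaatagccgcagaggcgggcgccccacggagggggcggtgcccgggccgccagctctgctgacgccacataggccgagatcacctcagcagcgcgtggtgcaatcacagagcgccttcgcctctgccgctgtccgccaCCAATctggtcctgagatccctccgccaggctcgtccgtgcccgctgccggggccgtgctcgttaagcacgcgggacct
Msmo1: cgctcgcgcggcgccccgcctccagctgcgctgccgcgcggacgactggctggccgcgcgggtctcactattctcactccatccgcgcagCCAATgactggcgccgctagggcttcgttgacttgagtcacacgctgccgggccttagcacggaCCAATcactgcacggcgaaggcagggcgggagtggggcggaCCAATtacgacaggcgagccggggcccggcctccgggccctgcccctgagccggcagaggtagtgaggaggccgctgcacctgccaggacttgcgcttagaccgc
Fasn: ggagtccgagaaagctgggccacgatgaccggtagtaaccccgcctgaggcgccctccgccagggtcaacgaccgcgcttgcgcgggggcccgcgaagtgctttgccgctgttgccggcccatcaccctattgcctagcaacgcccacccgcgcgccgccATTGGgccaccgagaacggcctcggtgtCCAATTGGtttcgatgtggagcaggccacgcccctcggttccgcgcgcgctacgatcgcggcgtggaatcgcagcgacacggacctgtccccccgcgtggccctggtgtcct
Hmgcs1 holds TCACCCCAC at 137 bases before the start and 4 NF-Y boxes, of which the last lies 11 bases after the start. Msmo1 holds 3 boxes, Cyp51 holds 1, and Fasn holds 3, with a pair that overlap at 62 and 59 bases before the start. Of the members, 23 had a promoter in the table, with 28 promoters among them. CCAAT was found in 21 of these 28 promoters (75%), against 37.4% of all 32851 promoters of the same length. TCACNCCAC was found in 1 of the 28, in Hmgcs1, against 408 of all promoters (1.24%). A match describes letters in this window and shows no binding.

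The libraries held between 55710468 and 129704045 UMIs, each UMI standing for 1 RNA molecule read, and between 8289 and 10142 cells were kept in each. Of 41605 distinct cell barcodes, 161 occurred in more than 1 library. Because each group is 1 library, no test between groups is possible: values are CPM, UMIs per 1000000 UMIs of a cell class in a library, and all intervals are 95% intervals that cover counting error only. Members were called higher or lower at a difference of at least 1.5-fold, which is a rule of size. The percentage of all genes past the same limit is given with the first count of each comparison. It belongs to the main processing, and counts under other processing or limits have no such percentage beside them. The labelled gene Tcf21 (ENSMUSG00000045680, mm10 chromosome 10, 22817281 to 22820174) stood at 32.6 CPM in infarct deletion-labelled, 22.4 CPM in infarct control, 146 CPM in uninjured deletion-labelled and 95.1 CPM in uninjured control fibroblasts. It was thus higher, not lower, under the deletion label, by a log2 ratio of 0.54 (0.40 to 0.68) after infarction and of 0.61 (0.54 to 0.69) without. The reads lie near the 3′ end, and whether they fall inside the floxed stretch is not given, so Tcf21 checks the labels only in part and every difference by genotype below is one between libraries that carry these labels.

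Fibroblasts numbered 1382 in infarct deletion-labelled, 921 in infarct control, 1986 in uninjured deletion-labelled and 1879 in uninjured control hearts. All 11 fibroblast markers were detected in each, with summed levels between 15312 and 46016 CPM. They fell into 3 clusters that were filled very differently. Cluster 5, led by Cthrc1, Tnc, Ccn4 and Lox, held 897 infarct deletion-labelled and 901 infarct control cells, against 9 uninjured deletion-labelled and 9 uninjured control cells. Cluster 4, led by Inmt, Col6a6, Gfra1 and Smoc2, held 219 infarct deletion-labelled, 7 infarct control, 1480 uninjured deletion-labelled and 1320 uninjured control cells. Cluster 9, led by Sema3c, Tmem100, Myoc and Dio2, held 266, 13, 497 and 550 cells in those groups in the same order. Infarct fibroblasts were also read more deeply, at 24333 UMIs per cell in deletion-labelled and 32813 in control hearts, against 14029 in uninjured deletion-labelled and 10931 in uninjured control hearts.

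Across cell classes, fibroblasts led for most members without infarction, but not after it. The 29 members summed to 1210 CPM in infarct deletion-labelled, 1345 CPM in infarct control, 1196 CPM in uninjured deletion-labelled and 978 CPM in uninjured control fibroblasts. Of the 29 members, 17 were highest in fibroblasts in the uninjured deletion-labelled library and 17 in the uninjured control library. The share of all genes highest in fibroblasts is not given here, so these counts describe the members alone. After infarction fibroblasts led for 12 members in the deletion-labelled library and for 7 in the control library, where mural cells, the pericytes and smooth muscle cells of vessel walls, led for 12. Dendritic cells led for 5 members in each infarct library. These counts go by the highest CPM alone, even where intervals of classes overlap. Mural cells of the infarct control numbered only 74. Mural cells summed to 1036 CPM in infarct deletion-labelled, 1442 CPM in infarct control, 734 CPM in uninjured deletion-labelled and 698 CPM in uninjured control hearts. Endothelial cells summed to 769, 931, 712 and 602 CPM in the same order. In dendritic cells after infarction Fdps stood at 132 CPM in deletion-labelled and 199 CPM in control hearts, against 148 and 201 CPM in fibroblasts. Neutrophils lay lowest after infarction, with members summed to 326 CPM in deletion-labelled and 335 CPM in control hearts. Classes differ in makeup between libraries, and classes with fewer than 50 cells in a library were left out.

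After infarction, fibroblasts of the control heart had higher levels of 16 of the 29 members and lower levels of 3, where 25.7% of all 14849 genes counted were higher and 40.1% were lower. The median log2 ratio of the members was 0.63, against -0.29 over all genes counted. The mevalonate steps were higher throughout, in 7 of 7 genes, and summed to 484 CPM in infarct control against 189 CPM in uninjured control fibroblasts, 2.56-fold higher. In the deletion-labelled heart 5 of 29 members were higher and 3 lower, and their median log2 ratio was -0.09, against -0.20 over all genes counted, of which 21.0% were higher and 32.7% lower. Its mevalonate steps summed to 370 CPM in infarct against 267 CPM in uninjured fibroblasts, 1.38-fold higher. These comparisons set cluster 5 in the infarcted control heart, and clusters 5, 9 and 4 in the infarcted deletion-labelled heart, against clusters 4 and 9 in the uninjured hearts, so injury and cluster cannot be told apart in the control.

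Fdps, which makes farnesyl diphosphate, stood at 148 CPM in infarct deletion-labelled, 201 CPM in infarct control, 72.2 CPM in uninjured deletion-labelled and 45.6 CPM in uninjured control fibroblasts. Both infarct values lay above both uninjured values, and the infarct values differed less from each other than from those. Its log2 ratio of infarct over uninjured was 1.04 (0.96 to 1.11) in deletion-labelled and 2.14 (2.04 to 2.24) in control fibroblasts, or 4.41-fold in the control. Pmvk, the kinase that adds the last phosphate to mevalonate, stood at 23.9 CPM in infarct deletion-labelled, 33.5 CPM in infarct control, 10.6 CPM in uninjured deletion-labelled and 7.21 CPM in uninjured control fibroblasts. Its log2 ratios were 1.17 (0.98 to 1.37) in deletion-labelled and 2.22 (1.97 to 2.48) in control fibroblasts, the highest of the 29 members in each genotype.

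Hmgcs1, the HMG-CoA synthase that stands before mevalonate and whose promoter carries the sterol element shown above, stood at 96.6 CPM in infarct deletion-labelled, 115 CPM in infarct control, 93.9 CPM in uninjured deletion-labelled and 68.2 CPM in uninjured control fibroblasts. The uninjured deletion-labelled value lay close to the infarct deletion-labelled one (log2 ratio 0.04, interval -0.03 to 0.12), while the control ratio was 0.75 (0.66 to 0.84). Idi1, the isomerase that readies isopentenyl units for joining, stood at 50.3 CPM in infarct deletion-labelled, 72.1 CPM in infarct control, 53.4 CPM in uninjured deletion-labelled and 40.4 CPM in uninjured control fibroblasts, past the limit in the control alone. Acat2, a thiolase that joins acetyl-CoA units, was higher by log2 ratios of 0.81 in deletion-labelled and 1.31 in control fibroblasts. Mevalonate kinase (Mvk) and mevalonate diphosphate decarboxylase (Mvd) were higher in the control alone by the size rule, with log2 ratios of 0.42 and 0.28 in deletion-labelled and of 1.07 and 1.35 in control fibroblasts.

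Among the squalene and sterol steps, 6 of 11 genes were higher in infarct than in uninjured control fibroblasts and none was lower, while in deletion-labelled fibroblasts 1 was higher and 1 lower. Cyp51, the lanosterol demethylase, stood at 79.4 CPM in infarct deletion-labelled, 92.4 CPM in infarct control, 44.8 CPM in uninjured deletion-labelled and 35.4 CPM in uninjured control fibroblasts. It was the only one of the 11 past the limit in both genotypes in the same direction, with log2 ratios of 0.83 (0.73 to 0.92) in deletion-labelled and 1.38 (1.26 to 1.502) in control fibroblasts. Squalene epoxidase (Sqle), the oxygen-dependent step after squalene, stood at 23.1 CPM in infarct deletion-labelled, 31.6 CPM in infarct control, 19.6 CPM in uninjured deletion-labelled and 14.995 CPM in uninjured control fibroblasts. Squalene synthase (Fdft1), with 23.6, 29.4, 24.0 and 15.3 CPM in the same order, was 1.92-fold higher in infarct than in uninjured control fibroblasts and within the limit in deletion-labelled ones. Lanosterol synthase (Lss) and the methylsterol enzymes Msmo1 and Nsdhl were also higher in the control, with log2 ratios of 0.63, 0.60 and 0.65.

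Sc5d, the sterol desaturase near the end of the path, went the other way. It stood at 23.4 CPM in infarct deletion-labelled, 33.0 CPM in infarct control, 52.8 CPM in uninjured deletion-labelled and 47.1 CPM in uninjured control fibroblasts. Its log2 ratio was -1.17 (-1.30 to -1.05) in deletion-labelled and -0.51 (-0.64 to -0.38) in control fibroblasts, so that the size rule was met in the deletion-labelled heart alone. The other late enzymes stayed within 1.5-fold in both genotypes. The sterol isomerase Ebp had log2 ratios of 0.27 in deletion-labelled and 0.44 in control fibroblasts, and Dhcr7, the last reductase before cholesterol, of -0.37 and 0.39. The ketoreductase Hsd17b7 had -0.34 and -0.08 in the same order, and the sterol reductase Tm7sf2, at 1.56 to 2.40 CPM, had -0.34 in deletion-labelled and -0.09 in control fibroblasts.

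**Figure D1:**
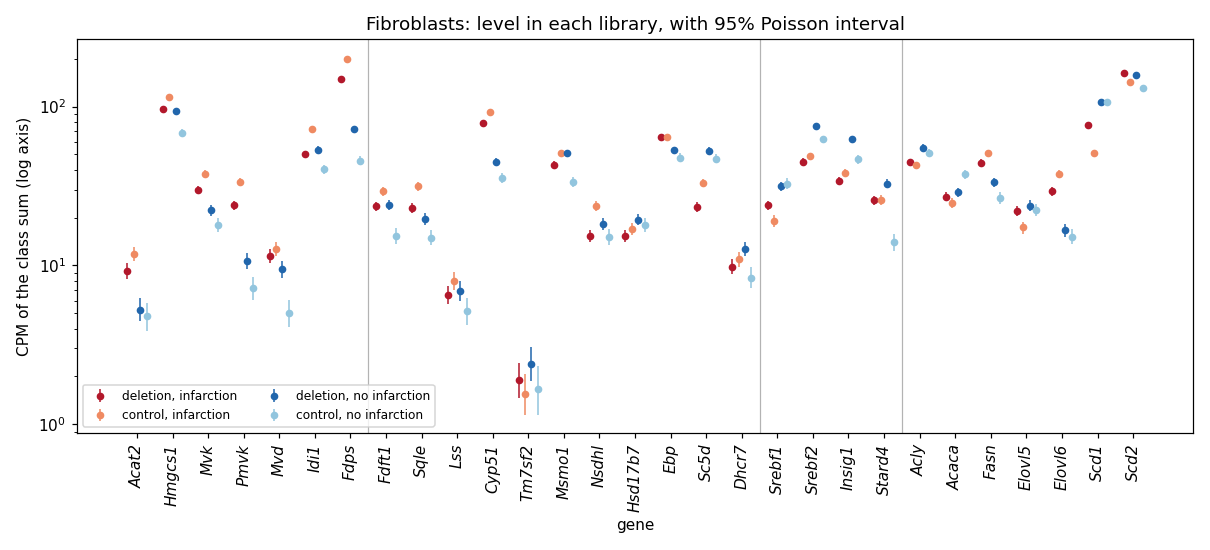
CPM of the 29 members in fibroblasts of the 4 libraries on a log axis, by role, with 95% Poisson intervals that cover counting error only. In the mevalonate steps the infarct control points lie highest, and for Sc5d and Insig1 the uninjured points lie highest.

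The regulators and the fatty acid enzymes were less uniform. Srebf2, which encodes the SREBP of sterol synthesis, stood at 45.1 CPM in infarct deletion-labelled, 48.5 CPM in infarct control, 75.2 CPM in uninjured deletion-labelled and 62.3 CPM in uninjured control fibroblasts. Both infarct values lay below both uninjured values. Insig1, a target of SREBP and a brake on it, stood at 34.0 CPM in infarct deletion-labelled, 38.1 CPM in infarct control, 62.3 CPM in uninjured deletion-labelled and 46.7 CPM in uninjured control fibroblasts, with log2 ratios of -0.87 (-0.98 to -0.76) in deletion-labelled and -0.30 (-0.42 to -0.17) in control fibroblasts. Srebf1, which encodes the SREBP more closely tied to fatty acids, was 1.72-fold lower in infarct than in uninjured control fibroblasts, at 19.0 against 32.7 CPM. In deletion-labelled fibroblasts it stood at 23.9 CPM after infarction and 31.5 CPM without.

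Of the fatty acid genes, Fasn and Elovl6 were higher in infarct control fibroblasts and Scd1 and Acaca were lower. Elovl6, which lengthens palmitate, stood at 29.4 CPM in infarct deletion-labelled, 37.9 CPM in infarct control, 16.6 CPM in uninjured deletion-labelled and 15.2 CPM in uninjured control fibroblasts, past the limit in both genotypes. The fatty acid synthase Fasn stood at 44.2, 51.0, 33.4 and 26.6 CPM in the same order, and was 1.91-fold higher in the control. Scd1, a stearoyl-CoA desaturase, stood at 76.1 CPM in infarct deletion-labelled, 50.9 CPM in infarct control, 106 CPM in uninjured deletion-labelled and 107 CPM in uninjured control fibroblasts. Scd1 was thus 2.11-fold lower after infarction in the control and within the limit in the deletion-labelled heart, while its neighbour and paralog Scd2 stood between 131 and 162 CPM throughout. Acaca, the acetyl-CoA carboxylase, had log2 ratios of -0.09 in deletion-labelled and -0.60 in control fibroblasts. Acly, which makes acetyl-CoA from citrate, and Elovl5, which lengthens polyunsaturated fatty acids, stayed within the limit in both. Scd1 and Scd2 are near relatives, and reads that map to both could be split between them.

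**Figure D2:**
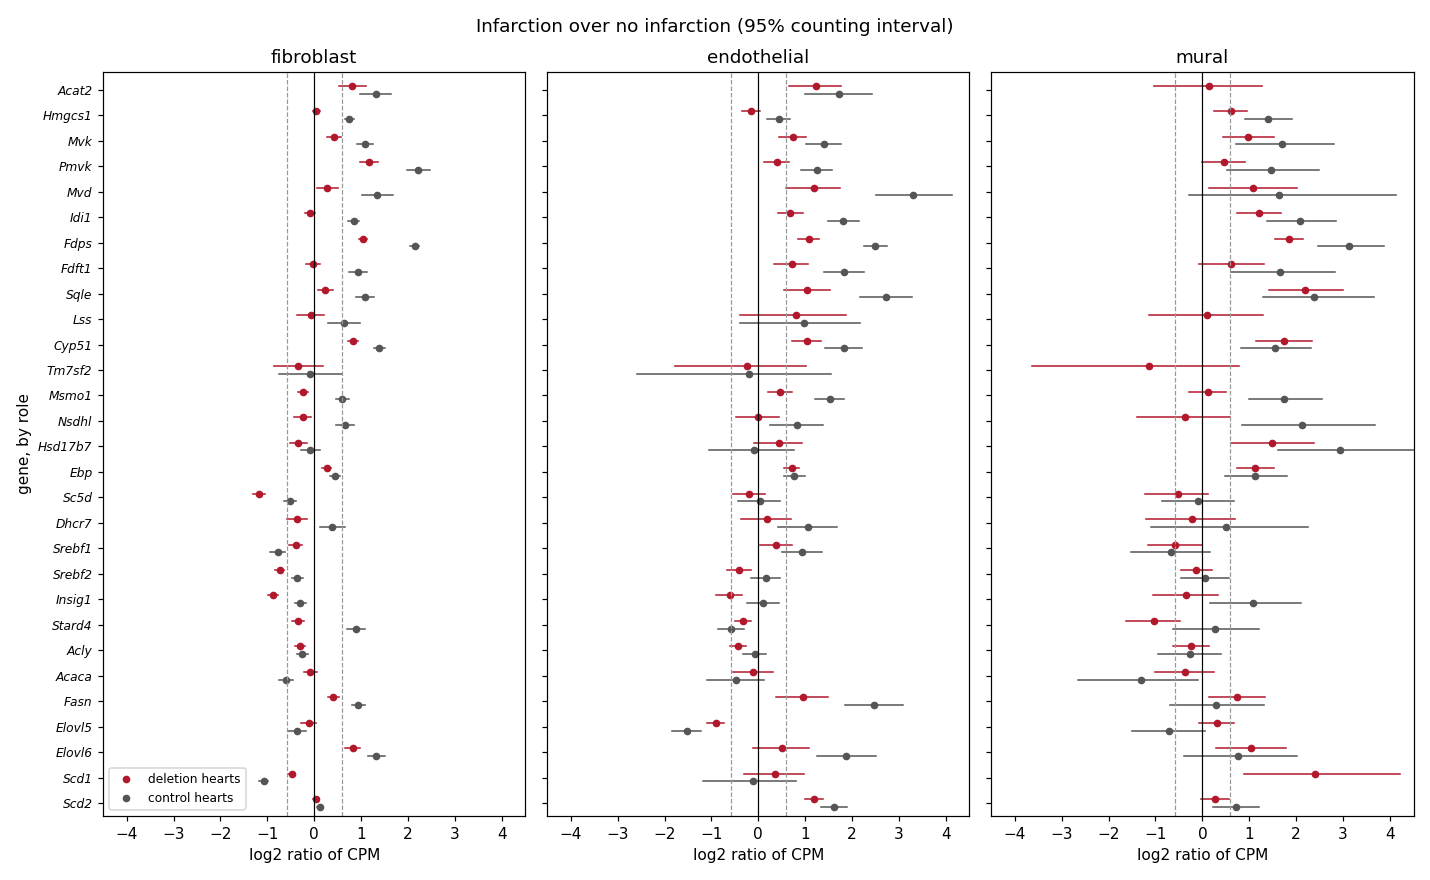
log2 ratios of infarct over uninjured CPM for the members in fibroblasts, endothelial cells and mural cells, by genotype, with 95% intervals for counting error and dashed lines at 1.5-fold. Members with under 10 UMIs in both sums are not drawn, and the mural control interval of Hsd17b7 runs past the axis; the mevalonate genes lie right of 0 in the control in all 3 classes.

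Genes that mark dividing cells were higher in the same infarct fibroblasts. The 10 cycling markers, all detected, summed to 602 CPM in infarct deletion-labelled, 886 CPM in infarct control, 102 CPM in uninjured deletion-labelled and 70.7 CPM in uninjured control fibroblasts. Within infarct fibroblasts, cells with at least 5 UMIs of 7 mitotic genes were set against cells with none. Fdps stood at 149 CPM in dividing and 121 CPM in other infarct deletion-labelled cells, and at 189 CPM in dividing and 173 CPM in other infarct control cells. Dividing and other cells were not matched for cluster or depth. In infarct deletion-labelled cells Fdps stood at 27.9 CPM in cluster 4 and 79.3 CPM in cluster 9, so division and cluster are mixed there. Among fibroblasts without a mitotic UMI, Fdps stood at 121 CPM in infarct deletion-labelled, 173 CPM in infarct control, 72.1 CPM in uninjured deletion-labelled and 45.0 CPM in uninjured control cells. Elovl6 stood at 42.4 CPM in dividing and 27.2 CPM in other infarct control cells, and Scd1 at 40.9 and 56.7 CPM. Over all members the median log2 ratio in the control was 0.39 when cells with a mitotic UMI were left out of both hearts, against 0.63 with them.

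The 219 infarct deletion-labelled cells of cluster 4 allowed injury to be compared within a cluster, against the 1480 uninjured deletion-labelled cells of cluster 4. There no member was higher and 19 of 29 were lower, against 8.11% of all genes higher and 14.4% lower. The median log2 ratio was -1.11, against -0.12 over all genes counted. The 18 sterol enzymes summed to 216 CPM in infarct and 575 CPM in uninjured cells of that cluster, 2.66-fold lower. Idi1 stood at 10.8 CPM in infarct and 53.1 CPM in uninjured cells, Cyp51 at 8.78 and 44.7 CPM, and Msmo1 at 9.98 and 50.5 CPM. Hmgcs1 stood at 29.5 against 95.2 CPM (log2 ratio -1.69, interval -2.04 to -1.35), and Insig1 at 18.4 against 66.8 CPM. Of the fatty acid genes, Elovl6 was 2.25-fold lower and Scd2 1.67-fold lower, while the other 5 stayed within the limit, Scd1 at 66.3 CPM in infarct and 86.6 CPM in uninjured cells. In cluster 9 the 18 sterol enzymes summed to 508 CPM in infarct and 570 CPM in uninjured deletion-labelled cells, and Scd1 stood at 163 and 157 CPM. Within one genotype, then, infarct fibroblasts ranged from 216 CPM of sterol enzymes in cluster 4 through 508 CPM in cluster 9 to 739 CPM in cluster 5. The clusters were drawn from these cells with the members among the genes that could be used, so these figures describe the clusters.

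Between genotypes without infarction, fibroblasts of the deletion-labelled heart had somewhat more of the sterol path. By the size rule 6 of 29 members were higher and none was lower, against 10.0% of all 14414 genes higher and 7.18% lower. The median log2 ratio of the members was 0.33, against -0.02 over all genes counted, and all 18 sterol enzymes had a ratio above 0. Counting intervals of the levels overlapped for some of these, such as Acat2 at 5.28 CPM in deletion-labelled and 4.77 CPM in control fibroblasts. The 18 enzymes summed to 572 CPM in deletion-labelled and 432 CPM in control fibroblasts, a log2 ratio of 0.41 (0.37 to 0.44). Stard4, a carrier that moves sterol between membranes, differed most, at 32.7 CPM in deletion-labelled against 14.0 CPM in control fibroblasts, a log2 ratio of 1.23 (1.03 to 1.42). Mvd stood at 9.48 CPM in deletion-labelled and 5.01 CPM in control fibroblasts, and Fdft1 at 24.0 and 15.3 CPM. The others past the limit were Fdps, Msmo1 and Dhcr7, with log2 ratios of 0.66, 0.60 and 0.60. None of the 7 fatty acid genes passed it, and Acaca had the lowest ratio, -0.37 (-0.52 to -0.23).

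In both uninjured clusters Stard4 and the summed sterol enzymes were higher in deletion-labelled cells. Stard4 stood at 34.2 CPM in deletion-labelled and 14.4 CPM in control cells of cluster 4, and at 28.6 and 13.2 CPM in cluster 9. The 18 enzymes summed to 575 CPM in deletion-labelled and 414 CPM in control cells of cluster 4, and to 570 and 454 CPM in cluster 9. Pmvk, however, was 10.5 CPM in deletion-labelled and 5.08 CPM in control cells of cluster 4 but 11.05 and 11.1 CPM in cluster 9. Sc5d was also slightly lower in cluster 9, at 34.9 CPM in deletion-labelled and 37.2 CPM in control cells. Mvd, Fdft1 and Msmo1 fell inside the limit there, with log2 ratios of 0.51, 0.45 and 0.53.

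After infarction the direction turned. By the size rule no member was higher in deletion-labelled than in control fibroblasts and 1 of 29 was lower, Nsdhl, against 13.3% of all 14801 genes higher and 5.07% lower. The median log2 ratio was -0.20, against 0.05 over all genes counted, and 17 of 18 sterol enzymes had a ratio below 0, the exception being Tm7sf2, whose interval included 0. Some of the 17 differed little, such as Ebp at 64.0 CPM in deletion-labelled and 64.6 CPM in control fibroblasts, with overlapping intervals. Nsdhl, a dehydrogenase that helps remove methyl groups from sterols, stood at 15.4 CPM in deletion-labelled and 23.8 CPM in control fibroblasts, a log2 ratio of -0.63 (-0.79 to -0.46). Idi1 had a log2 ratio of -0.52 (-0.61 to -0.43), Sc5d of -0.50 and Pmvk of -0.49, each short of the limit. Scd1 lay just inside the limit on the other side, at 76.1 CPM in deletion-labelled and 50.9 CPM in control fibroblasts, a log2 ratio of 0.58 (0.49 to 0.67). The 18 enzymes summed to 675 CPM in deletion-labelled and 847 CPM in control fibroblasts, and the 7 fatty acid genes to 406 and 367 CPM. The count of lower members depends on depth and weighting: it was 9 when each cell was thinned to 2000 UMIs and 5 when CPM was averaged over cells, which gives each cell the same weight.

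Part of the deletion-labelled sum came from clusters 4 and 9, which held few infarct control cells. In cluster 5 alone, where each genotype had about 900 cells, no member passed the limit in either direction, against 7.68% of all genes higher and 4.41% lower. The median log2 ratio there was -0.13, against 0.03 over all genes counted. The 18 enzymes summed to 739 CPM in deletion-labelled and 848 CPM in control cells of cluster 5, a log2 ratio of -0.20 (-0.22 to -0.17), against -0.33 over all fibroblasts. Fdps stood at 169 CPM in deletion-labelled and 201 CPM in control cells of cluster 5, and Nsdhl at 16.4 and 23.4 CPM. Tcf21 was alike there, at 21.6 CPM in deletion-labelled and 22.0 CPM in control cells.

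**Figure D3:**
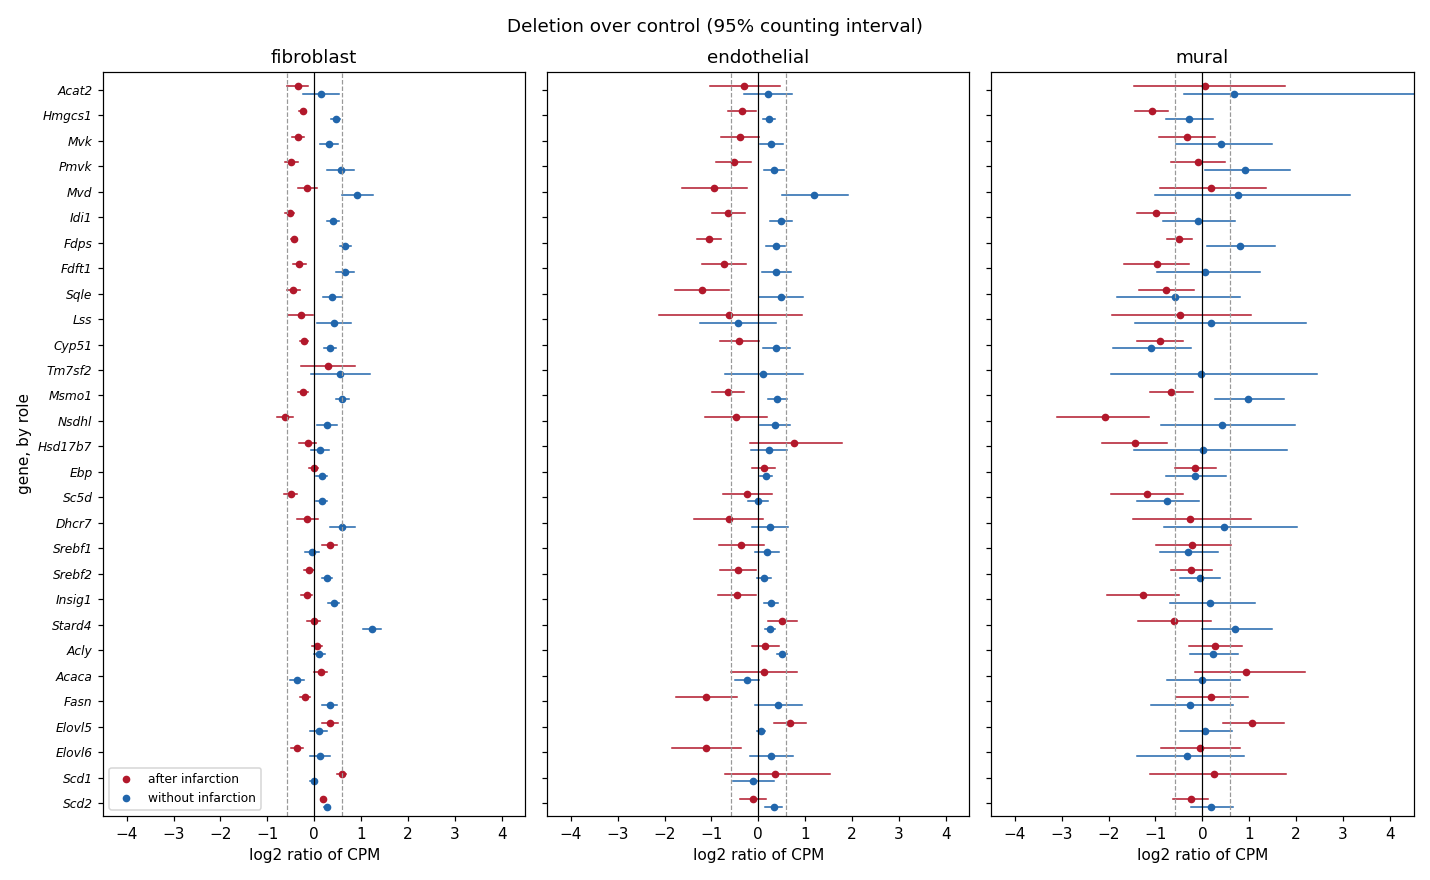
log2 ratios of deletion-labelled over control CPM for the members in fibroblasts, endothelial cells and mural cells, after infarction and without, with 95% intervals for counting error and dashed lines at 1.5-fold. Most sterol enzymes of fibroblasts lie right of 0 without infarction and left of 0 after it; members with under 10 UMIs in both sums are not drawn, and the interval of mural Acat2 without infarction runs past the axis.

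Endothelial cells, which line the vessels, numbered 592 in infarct deletion-labelled, 228 in infarct control, 4713 in uninjured deletion-labelled and 3868 in uninjured control hearts. Unnamed clusters 10, 11 and 15 also carried endothelial markers, held mostly uninjured cells, and were left out of this class. In the control 18 of 29 members were higher after infarction and 1 was lower, against 25.7% of all genes higher and 30.9% lower, and the members' median log2 ratio was 0.97. In the deletion-labelled heart 12 were higher and 2 lower, against 21.3% and 20.6% of all genes, with a median of 0.44. Sqle stood at 10.0 CPM in infarct deletion-labelled, 23.1 CPM in infarct control, 4.88 CPM in uninjured deletion-labelled and 3.51 CPM in uninjured control cells. Fdps stood at 49.2, 101, 23.3 and 18.1 CPM in the same order, a control log2 ratio of 2.49 (2.24 to 2.74). Both infarct values were above both uninjured values for each of these genes. Mvd reached 14.2 CPM in infarct control against 1.44 CPM in uninjured control cells, on 37 and 23 UMIs. Elovl5 was lower after infarction in both genotypes, at 58.2 CPM in infarct deletion-labelled, 36.5 CPM in infarct control, 109 CPM in uninjured deletion-labelled and 105 CPM in uninjured control cells.

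Most infarct endothelial cells, 399 in the deletion-labelled and 212 in the control heart, lay in cluster 13, led by Vwf and Plvap, which held 149 and 220 uninjured cells. Most uninjured cells lay in clusters 1 and 2. In cluster 13 alone 15 of 27 members counted were higher and 1 lower in the control, against 24.7% and 32.6% of all genes. In the deletion-labelled heart 9 of 28 were higher and 2 lower in that cluster, against 17.4% and 22.6%. Fdps in cluster 13 stood at 52.3 CPM in infarct deletion-labelled, 101 CPM in infarct control, 16.6 CPM in uninjured deletion-labelled and 19.1 CPM in uninjured control cells. For Scd2, the higher level after infarction in the control was largely gone within that cluster, at 63.9 CPM in infarct and 53.0 CPM in uninjured cells. Over all endothelial cells of the control, Scd2 stood at 64.9 and 21.1 CPM. Elovl5 in cluster 13 stood at 50.9 CPM in infarct and 65.6 CPM in uninjured deletion-labelled cells, within the limit. In control cells of that cluster it stood at 36.1 CPM in infarct and 70.6 CPM in uninjured hearts. Cycling markers summed to 805 CPM in infarct deletion-labelled, 975 CPM in infarct control, 170 CPM in uninjured deletion-labelled and 152 CPM in uninjured control endothelial cells, and their part in these results was not tested.

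By genotype, endothelial cells without infarction had 1 member higher, Mvd, and none lower, against 10.2% of all genes higher and 8.56% lower, and the members' median log2 ratio was 0.27. After infarction 2 of 28 members counted were higher and 10 were lower, against 19.3% and 5.1% of all genes, with a median of -0.42. Fdps stood at 49.2 CPM in deletion-labelled and 101 CPM in control cells after infarction, a log2 ratio of -1.05 (-1.30 to -0.79). Sqle had a log2 ratio of -1.20 (-1.77 to -0.63), and Fasn and Elovl6 each of -1.11, on 32 to 45 UMIs a sum. Idi1, Fdft1, Msmo1, Mvd, Lss and Dhcr7 completed the 10, with the intervals of Lss and Dhcr7 including 0. Elovl5 and Hsd17b7 were higher, by log2 ratios of 0.67 and 0.75, and the interval of Hsd17b7, on 42 and 13 UMIs, included 0. Cluster 13 held 399 of the 592 deletion-labelled and 212 of the 228 control cells. Within it, Fdps stood at 52.3 CPM in deletion-labelled and 101 CPM in control cells, and Sqle at 11.2 and 23.3 CPM. Idi1, Msmo1, Lss and Elovl5 fell inside the limit there, Idi1 at 35.2 CPM in deletion-labelled and 47.4 CPM in control cells. In unnamed cluster 15 without infarction, Mvd stood at 6.34 CPM in deletion-labelled and 8.79 CPM in control cells, on 25 and 15 UMIs. Fdps stood at 33.7 and 19.3 CPM in that cluster.

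Mural cells were fewer, at 168 in infarct deletion-labelled, 74 in infarct control, 530 in uninjured deletion-labelled and 193 in uninjured control hearts, so their intervals are wide. In the control 16 of 25 members counted were higher after infarction and 3 lower, against 22.0% and 39.6% of all genes, and their median log2 ratio was 1.13. In the deletion-labelled heart 13 of 29 were higher and 2 lower, against 17.3% and 29.7%, with a median of 0.30. With each cell thinned to 2000 UMIs, 7 of 23 members counted were higher and 4 lower in the deletion-labelled heart, and 7 of 11 were higher and none lower in the control. The percentages above are for the sums without thinning. Fdps stood at 155 CPM in infarct deletion-labelled, 217 CPM in infarct control, 43.1 CPM in uninjured deletion-labelled and 24.9 CPM in uninjured control cells. Sqle stood at 30.3, 51.7, 6.64 and 9.95 CPM in the same order. Acaca was lower after infarction in the control, at 9.50 against 23.6 CPM, on 9 and 19 UMIs. By genotype without infarction 6 of 28 members were higher and 2 lower, against 13.5% and 15.2% of all genes. One of the 6 is Acat2, with 18 UMIs in deletion-labelled and 1 UMI in control cells. After infarction 2 of 28 were higher and 11 lower, against 19.2% and 5.77%. Hmgcs1 stood at 71.6 CPM in deletion-labelled and 151 CPM in control cells after infarction, a log2 ratio of -1.08 (-1.43 to -0.72), and Nsdhl at 7.71 and 32.7 CPM. These mural counts after infarction turned when doublets were not removed, with 5 members higher and 3 lower. Cycling markers summed to 332 CPM in infarct deletion-labelled, 342 CPM in infarct control, 82.6 CPM in uninjured deletion-labelled and 84.6 CPM in uninjured control mural cells, and their part was not tested.

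Leukocytes could be compared by genotype after infarction. In mononuclear phagocytes, 2485 deletion-labelled and 2982 control cells, no member passed the limit, against 8.93% of all genes higher and 4.0% lower. The median log2 ratio there was -0.16, against 0.10 over all genes counted. By sign alone, without regard to intervals, 17 of 18 sterol enzymes again lay below 0 in the deletion-labelled library. Fdps stood at 50.4 CPM in deletion-labelled and 68.1 CPM in control phagocytes, a log2 ratio of -0.44, the same as in fibroblasts. Lss had the lowest ratio, -0.56, while Acly stood at 92.9 CPM in deletion-labelled and 77.4 CPM in control phagocytes. In dendritic cells only Fdps passed the limit, at 132 CPM in deletion-labelled and 199 CPM in control cells, a log2 ratio of -0.60, with no member higher, against 8.81% of all genes higher and 4.3% lower. In neutrophils 1 of 26 members counted was higher, Stard4, and 1 lower, Lss on 5 and 11 UMIs, against 8.12% and 8.67% of all genes. The 18 sterol enzymes summed to 368 CPM in deletion-labelled and 445 CPM in control phagocytes, and to 660 and 849 CPM in dendritic cells. Sums under the deletion label were also lower in fibroblasts and endothelial cells of the same pair of libraries, and in mural cells, where the counts depend on the removal of doublets. A difference between these libraries as a whole cannot be told apart from one of genotype.

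Stard4 stood apart from the enzymes. Without infarction it was higher in deletion-labelled than in control cells in fibroblasts (32.7 against 14.0 CPM) and in mural cells (38.5 against 23.6 CPM). It was also higher in an unnamed cluster of 375 deletion-labelled and 551 control cells led by Lilra5, Pla2g2d, Lyve1, Timd4 and Cd163 (30.7 against 10.2 CPM). The interval of the mural ratio included 0. B cells (30.02 against 16.5 CPM) and T and NK cells (46.1 against 26.7 CPM) lay the same way, on few cells. In endothelial cells, where Stard4 was highest in every library, it stood at 66.0 CPM in infarct deletion-labelled, 46.5 CPM in infarct control, 82.8 CPM in uninjured deletion-labelled and 69.7 CPM in uninjured control cells. After infarction it was 8.89 CPM in deletion-labelled and 2.81 CPM in control neutrophils, a log2 ratio of 1.66, on 74 and 23 UMIs. In fibroblasts the log2 ratio there was -0.01, at 25.8 CPM in deletion-labelled and 25.9 CPM in control cells.

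Scd1, which was lower past the limit in infarct fibroblasts of the control alone, was also abundant in B cells. There it stood at 411 CPM in infarct deletion-labelled, 370 CPM in infarct control, 390 CPM in uninjured deletion-labelled and 409 CPM in uninjured control hearts. B cell levels thus stayed close together across groups, with log2 ratios between -0.15 and 0.15 over the 4 comparisons. Cells with an Scd1 UMI, after thinning each cell to 2000 UMIs, were 53.2% of infarct deletion-labelled, 49.8% of infarct control, 49.0% of uninjured deletion-labelled and 50.8% of uninjured control B cells. In fibroblasts they were 13.7%, 9.57%, 16.8% and 16.1% in the same order, and in endothelial cells 0.738%, 0.498%, 0.860% and 0.660%. Without thinning they were 62.4%, 55.9%, 71.1% and 67.4% of B cells, at median depths between 2348 and 4047 UMIs, and 3.21%, 4.39%, 2.10% and 1.73% of endothelial cells, at median depths between 3644 and 8546.5 UMIs. The endothelial, mural and phagocyte levels of Scd1 were under a ratio of 0.1 to that in B cells and may be free RNA. The 8 adipocyte markers summed to at most 0.710 CPM in B cells and at most 1.36 CPM in fibroblasts, with Cidec, Lep and Cfd at 0 in all of these, and their part in the Scd1 levels was not tested.

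**Figure D4:**
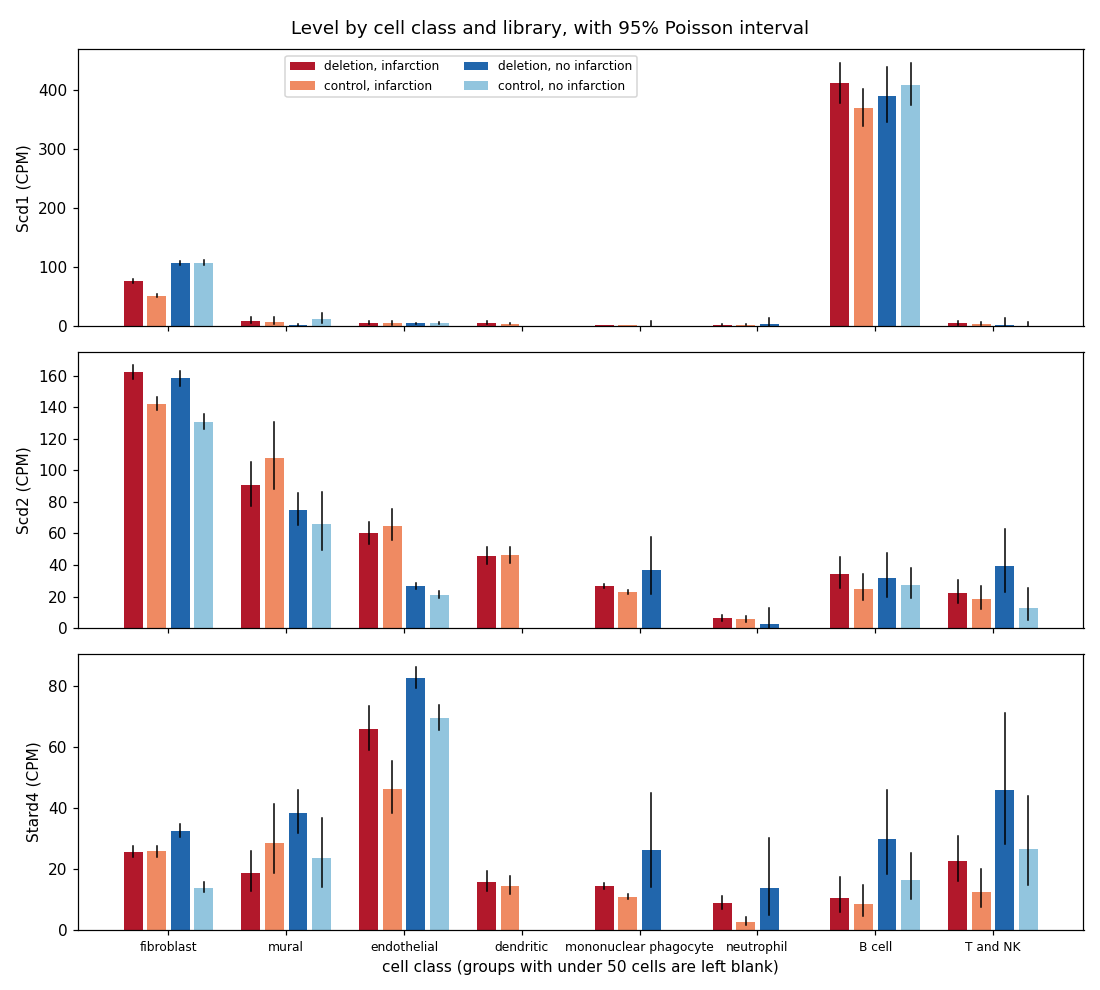
CPM of Scd1, Scd2 and Stard4 by cell class in the 4 libraries, with 95% Poisson intervals for counting error and axes from 0. Scd1 is near 400 CPM in B cells of every library, Scd2 is highest in fibroblasts, and Stard4 is highest in endothelial cells; groups with fewer than 50 cells are blank.

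Other genes around the pathway were taken from lists of 16 further SREBP targets, 8 genes of SREBP processing, 7 LXR receptors and targets, 8 genes of sterol and triglyceride storage and 12 of fatty acid oxidation. In infarct against uninjured control fibroblasts 4 of 15 further targets counted were higher and 5 lower, shares near the 25.7% and 40.1% of all genes. Tmem97, a sterol-responsive membrane protein, stood at 92.5 CPM in infarct deletion-labelled, 126 CPM in infarct control, 33.7 CPM in uninjured deletion-labelled and 25.9 CPM in uninjured control fibroblasts. Lpin1, a phosphatidate phosphatase, was lower after infarction, at 5.62 CPM in infarct deletion-labelled, 3.18 CPM in infarct control, 19.9 CPM in uninjured deletion-labelled and 18.9 CPM in uninjured control fibroblasts. SREBP processing had 4 of 8 genes lower and none higher in the control, where 40.1% of all genes were lower and 25.7% higher. Insig2 had the lowest ratio of these, a log2 value of -1.30.

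LXR proteins sense sterol surplus and drive its export. In the control 5 of the 7 LXR genes were lower after infarction in fibroblasts and none was higher, against 40.1% and 25.7% of all genes. Abca1, a cholesterol exporter, stood at 24.4 CPM in infarct deletion-labelled, 6.32 CPM in infarct control, 43.3 CPM in uninjured deletion-labelled and 86.1 CPM in uninjured control fibroblasts. Apoe, a carrier of exported lipid, stood at 518, 136, 2156 and 1858 CPM in the same order. After infarction 5 of the 7 were higher in deletion-labelled than in control fibroblasts, against 13.3% of all genes, and 3 of 7 in cluster 5 alone, against 7.68%. Phagocyte markers, whose cells also carry Apoe, were all detected in infarct fibroblasts and summed to 143 CPM in deletion-labelled and 159 CPM in control cells, and their part was not tested. Of 8 storage genes, 4 were higher and 2 lower after infarction in each genotype, against 21.0% of all genes higher and 32.7% lower in the deletion-labelled heart and 25.7% and 40.1% in the control. Of 12 fatty acid oxidation genes, 1 was higher and 2 lower in the control, against the same 25.7% and 40.1%. In endothelial cells after infarction, 5 of 8 storage genes were higher in deletion-labelled than in control cells and none was lower, against 19.3% and 5.1% of all genes.

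Across 29 class sums of at least 50 cells, the members of the sterol path varied together to different degrees. For each member, Spearman's rho with each of the 18 sterol enzymes other than itself was taken over these sums, which share libraries and depth. The median rho was 0.74 for Fdps, 0.70 for Sqle, 0.69 for Cyp51 and 0.70 for Scd2, a fatty acid gene. It was -0.08 for both Tm7sf2 and Elovl5, 0.04 for Acly, 0.10 for Stard4 and 0.14 for Sc5d. Tm7sf2 rested on few UMIs in some sums, such as 3 in infarct control endothelial cells. No rho of genes outside the members is given for comparison. By role, the median of these values was 0.61 for the mevalonate steps, 0.50 for the squalene and sterol steps, 0.40 for the fatty acid genes and 0.36 for the regulators.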

How the data were processed

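The deposited matrices hold UMI counts per gene and cell barcode, made by the authors with Cell Ranger 5.0.1 per the submitters' processing notes, from droplet libraries of 3′ ends on mm10. Sequenced reads were not used here. Barcodes below 500 UMIs or 200 genes, or with a mitochondrial share above 20%, were dropped, and likely doublets (0.8% per 1000 barcodes) were removed by simulated-doublet scores. The 4 libraries were clustered together (scanpy 1.11.5, leidenalg 0.10.2, 2000 variable genes, 30 components, 20 neighbours, resolution 1.0), and clusters were named from marker lists. UMIs were summed per class and library and divided by the class total (CPM). Ratios carry exact conditional intervals and levels exact Poisson intervals at 95% (scipy 1.17.1). The lower rate was raised to that of 3 UMIs where it fell below, and a member was counted with at least 10 UMIs in either sum. The calculation was tested on simulated data. Each group has 1 library, so no p-value is given.

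The members, the other gene lists and the tests were chosen with earlier results of these data known. All 29 members are named. From each other list, up to 4 genes with the largest ratios past 1.5-fold could be named. Promoters were considered for up to 8 members with the largest control infarction ratios in fibroblasts at 50 CPM or more, and those shown are 4 of these. Alternatives covered scaling, filters, doublets, clustering, the fold limit, the UMI minimum and thinning.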

Additional observations from a re-analysis of the deposited data

Results flagged for a closer look

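Summed over all fibroblasts and all endothelial cells, the deletion-labelled library lay above the control without infarction and below it after infarction, which set these sums apart. The difference between the 2 contrasts was not tested, since each group is 1 library. In fibroblasts the log2 ratio of deletion-labelled over control for the summed mevalonate steps was -0.39 after infarction and 0.50 without. For the summed squalene and sterol steps it was -0.25 after infarction and 0.33 without. In endothelial cells the mevalonate steps had -0.65 after infarction and 0.32 without, and the squalene and sterol steps -0.32 after infarction and 0.23 without. Most infarct endothelial cells lay in cluster 13 and most uninjured ones in clusters 1 and 2, so these contrasts rest on different clusters. Within cluster 13 without infarction, Fdps stood at 16.6 CPM in deletion-labelled and 19.1 CPM in control cells. Cyp51 stood at 4.74 and 16.2 CPM there, while Pmvk stood at 21.3 and 17.7 CPM.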

How the results depend on the processing

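Of the median log2 ratios recomputed under alternatives, 194 stayed within the counting interval of the member at the median, and 4 moved, all in fibroblasts. With doublets kept, 2 medians near 0 changed sign: -0.01 in place of 0.06 for deletion-labelled against control mural cells without infarction, and 0.08 in place of -0.07 for neutrophils after infarction. For infarction in deletion-labelled hearts (-0.09) the median was -0.23 with CPM averaged over cells and -0.56 without clusters of cycling cells. For deletion-labelled against control after infarction (-0.20) it was -0.37 averaged over cells and -0.33 thinned to 2000 UMIs. Counts moved more often, by over 1.5 times in 30 values for higher members, against 183 that did not, and in 50 for lower members, against 163. At a fold limit of 2, 8 members were higher in infarct control fibroblasts in place of 16, and 2 in place of 5 in deletion-labelled ones. Thinning left 7 in place of 16 in mural cells of the control. Leaving out cells with a mitotic UMI, using cluster 5 or 13 alone and a looser naming limit were chosen after seeing the data. Leaving out clusters of cycling cells gave no value for infarct control fibroblasts, nearly all of which lie in such a cluster. No paired analysis was possible because a group is a single library, and no library could be left out. Intervals cover counting error only, and members with few UMIs in mural and infarct endothelial cells are limited by depth.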

Other observations

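An unnamed cluster led by Lilra5, Pla2g2d, Gpr34, Lyve1, Timd4 and Cd163 held 375 uninjured deletion-labelled and 551 uninjured control cells, and few infarct cells. Its 29 members summed to 527 CPM in deletion-labelled and 401 CPM in control cells. Fdft1 stood at 9.66 CPM in deletion-labelled and 3.58 CPM in control cells of this cluster. Mvd stood at 4.72 and 0.796 CPM, on 22 and 4 UMIs.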
